A study of Homo sapiens with 12 samples.

Results

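K562 cells treated with the USP7 inhibitor FT671 held less mRNA of the clamp PCNA, the nuclease FEN1 and the origin loaders CDC6 and CDT1, and more mRNA of ORC5 and ORC2, subunits of the origin recognition complex (ORC). The 55 genes described here encode factors of DNA replication: ORC, licensing factors, the MCM helicase, the kinase and the CDC45 and GINS proteins that activate it, the sliding clamp and its loader, the single-strand binding protein RPA, the 3 replicative polymerases, fork and Okazaki fragment factors, topoisomerases and ribonucleotide reductase. They were taken by name from the 60609 genes that were counted, by matching Ensembl identifiers to GENCODE symbols, and each of the 55 had enough counts to be among the 13895 genes tested. K562 is an established human leukemia line of chronic myeloid origin, and FT671 is a small molecule that inhibits the deubiquitinase USP7. Total RNA was sequenced from 3 DMSO-treated cultures and from 3 cultures treated with 10 μM FT671, both for 48 h. The 6 ChIP-seq libraries of the series were not analysed here.

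Replication starts at origins that ORC marks in G1 phase. CDC6 and CDT1 then load the MCM2-7 helicase there as an inactive double ring, and geminin, encoded by GMNN, blocks CDT1 once S phase has begun. The CDC7-DBF4 kinase and the joining of CDC45 and GINS turn MCM2-7 into the active helicase, after which polymerase α-primase lays primers, polymerase ε extends the leading strand, and polymerase δ the lagging strand. PCNA, the ring-shaped clamp that RFC loads, tethers polymerases to DNA and brings in FEN1 and LIG1, which trim and seal Okazaki fragments. Many of these genes are transcribed at the G1/S transition by E2F factors, and USP7 itself has been found at replication forks. In bulk RNA, fewer cells in S phase and less mRNA per cell cannot be told apart.

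Because E2F factors control many of these genes, the promoter sequences are shown first. RefSeq (GRCh38.p14) gave a window from 250 bases before to 50 bases after the gene's start for 49 of the 55 genes. MCM4, MCM5, GINS4, RPA2, RPA3 and POLD3 had no entry. Where a gene had several entries, the one nearest to the start of the Ensembl canonical transcript was used, and 47 of the 49 windows lay within 20 bases of that start. TTTCCCGC, TTTGGCGC and TTTCGCGC, letters of the kind that E2F factors bind, were searched on both strands, and TTTGGCGC and TTTCGCGC can overlap each other when they lie on opposite strands. At least 1 of them was found in 19 of the 49 windows (38.8%), against 2.82% of 27305 windows of all genes and 4.91% of the 9863 windows of genes tested. The last 160 bases before the start are printed 5′ to 3′ on the gene's own strand for 4 genes whose mRNA changed after FT671 and that carried these letters there, and for PCNA, which changed most and did not. Capitals mark the letters. PCNA lies on the minus strand with the printed bases at chr20:5119959-5120118, CDT1 on the plus strand at chr16:88803629-88803788, MCM6 on the minus strand at chr2:135876444-135876603, POLE4 on the plus strand at chr2:74958483-74958642 and GINS2 on the minus strand at chr16:85688955-85689114.
PCNA: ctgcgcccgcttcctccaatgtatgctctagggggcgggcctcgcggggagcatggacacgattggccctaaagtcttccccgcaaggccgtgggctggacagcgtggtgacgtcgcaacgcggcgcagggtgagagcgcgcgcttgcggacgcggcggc
CDT1: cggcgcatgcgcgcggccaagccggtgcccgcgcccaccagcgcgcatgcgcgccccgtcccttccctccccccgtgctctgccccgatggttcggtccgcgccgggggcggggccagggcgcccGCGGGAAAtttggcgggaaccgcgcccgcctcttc
MCM6: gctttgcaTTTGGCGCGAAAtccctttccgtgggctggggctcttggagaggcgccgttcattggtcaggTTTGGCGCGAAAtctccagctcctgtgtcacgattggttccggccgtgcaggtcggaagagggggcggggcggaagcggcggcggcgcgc
POLE4: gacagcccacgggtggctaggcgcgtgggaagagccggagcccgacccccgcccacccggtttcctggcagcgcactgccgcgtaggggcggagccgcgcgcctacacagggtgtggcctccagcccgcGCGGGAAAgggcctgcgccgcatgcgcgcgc
GINS2: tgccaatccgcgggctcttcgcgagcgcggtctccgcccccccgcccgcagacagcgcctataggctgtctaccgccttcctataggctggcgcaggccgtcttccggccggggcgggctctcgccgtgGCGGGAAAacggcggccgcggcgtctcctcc
CDT1 mRNA was lower after FT671, and mRNA of MCM6, POLE4 and GINS2 was higher. Of the 19 genes with the letters in the whole window, 3 were lower (CDT1, CDC6 and MCM3), 5 were higher (POLE4, POLA1, ORC3, GINS2 and MCM6) and 11 had no call. Their median log2 fold change was 0.08. Of the 30 genes whose window did not hold these letters, 5 were lower, 12 were higher and 13 had no call, with a median of 0.10. As shares, 15.8% were lower and 26.3% higher with the letters, and 16.7% and 40% without them. Among all genes tested, 26.5% were lower and 23.6% higher at the same adjusted p-value under 0.05. Only these 3 exact words were searched, so a window without them can still hold other letters that E2F factors bind. The match is of letters only, and binding of any factor was not measured here.

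Across all 55 genes, 8 were lower and 19 were higher after FT671 at an adjusted p-value under 0.05 (edgeR's quasi-likelihood test, Benjamini-Hochberg adjustment over the 13895 genes), and 28 had no call. Among all genes tested, 26.5% were lower and 23.6% were higher at this threshold, while the replication genes came to 14.5% and 34.5%. The larger share of higher genes depended on single libraries. It was 16.4% against 18.9% of all genes without FT671 replicate 3, 18.2% against 19.8% without DMSO replicate 1, and 20% against 18.4% without FT671 replicate 2. It was 25.5% against 21.3% without DMSO replicate 2, 38.2% against 25.7% without DMSO replicate 3, and 27.3% against 20.3% without FT671 replicate 1. At the stricter threshold of 1e-05, PCNA was lower and ORC5 was higher in edgeR, against 4.13% and 1.79% of all genes tested. The study's methods used this threshold with DESeq2, whose Wald test here called 3 of the 55 genes lower and 5 higher. Most changes were small: the median size of a log2 fold change, regardless of sign, was 0.21 for the replication genes and 0.36 for all genes. These sets were not matched for expression level, and its part in the difference was not tested. The median with its sign was 0.08 for the replication genes and −0.01 for all genes. All 3 FT671 libraries lay below all 3 DMSO libraries for 12 of the 55 genes and above them for 15, against 30.3% and 26.8% of all genes tested. The p-values measure the spread between these cultures. The paper names 3 independent experiments with DMSO or FT671. Beyond a replicate number, the labels do not say which cultures shared an experiment, and the test did not pair them.

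**Figure D1:**
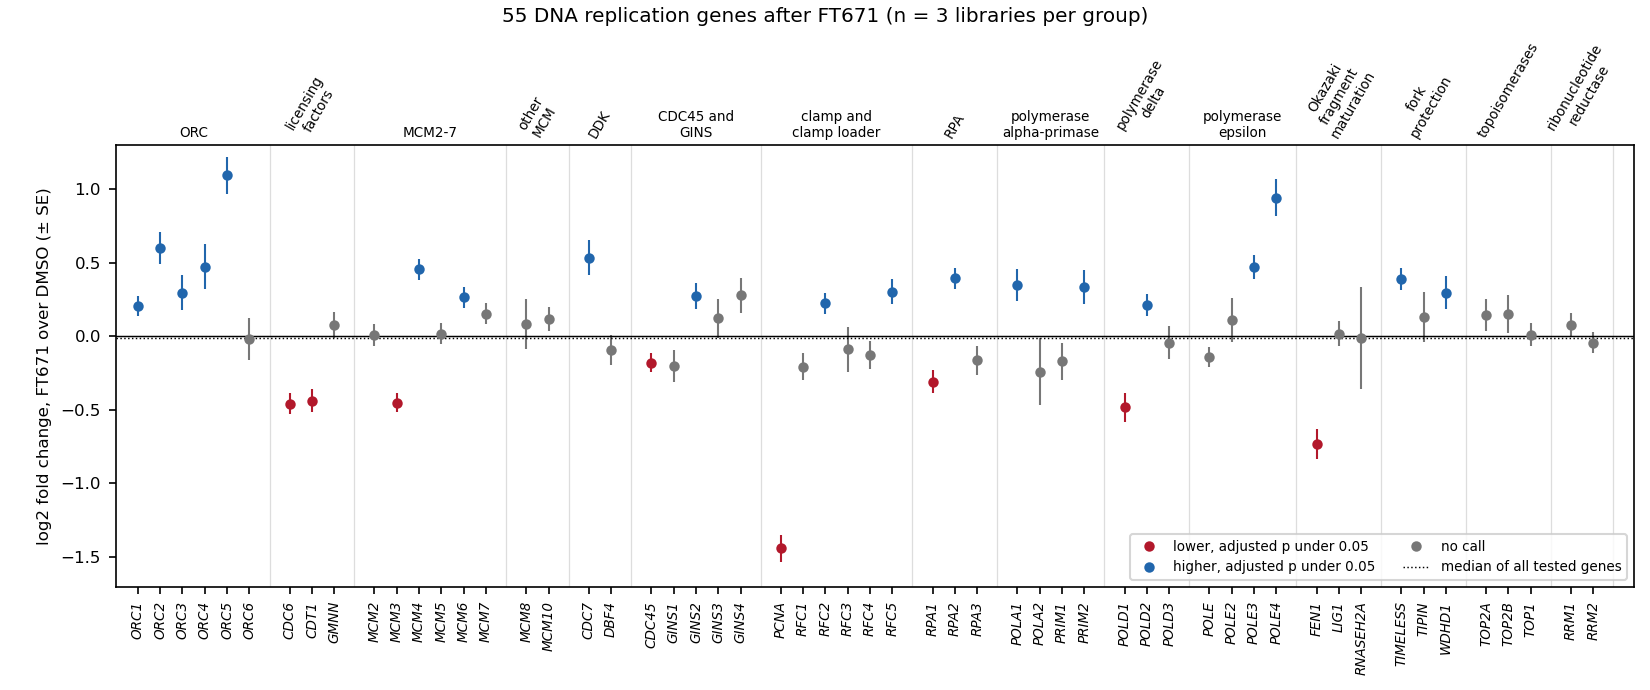
Log2 fold change after FT671 (vertical axis, error bars ± 1 SE, n = 3 libraries per group) of the 55 replication genes, grouped by complex. Red points are lower and blue points higher at an adjusted p-value under 0.05, grey points have no call, and the dotted line is the median of all genes tested (−0.01); PCNA at −1.44 and ORC5 at 1.09 are the extremes, and several complexes hold points of both colours.

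Library depth ran from 4555220 to 14250500 counts, and 3 counts, taken as the detection floor, corresponded to 0.208 to 0.666 CPM, that is, counts scaled to library size after TMM normalization. This floor covers counting error only. Reads from overlapping genes cannot be told apart if strand was not used in the counting. Exons of ORC2, ORC4, MCM7, DBF4, CDC45, GINS1, GINS2, RFC4, RFC5, RPA1, RPA3, POLE3, LIG1, TOP1 and RRM1 overlap those of a gene on the opposite strand, and exons of POLD1, POLD3, TIPIN and TOP2B those of a gene on the same strand. Pseudogene copies held at most 34 counts in all libraries together (RRM2P3). USP7 mRNA itself was lower after FT671, with 107 to 131 CPM in the DMSO libraries and 29.3 to 35.8 CPM in the FT671 libraries. DMSO replicate 3 stood apart: it was the DMSO library farthest from the median of its group for 41 of the 55 replication genes, and it had the highest value for 31 and the lowest for 19. Erythroid markers of K562 were present in all libraries and changed: HBG1, HBG2 and HBZ, which encode fetal and embryonic globins, were higher, and GATA1, TAL1 and KLF1, erythroid transcription factors, were lower. Among markers of other cells, MS4A1 had no counts in any library, CD14 and CD3E stayed under the filter, COL1A1 was low (1.01 to 2.35 CPM), and the epithelial EPCAM was at 58.6 to 64.0 CPM in DMSO and at 82.8 to 86.6 CPM after FT671. The part of these shifts in the replication results was not tested.

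The clamp PCNA (ENSG00000132646, hg38 chr20:5114953-5126626) had the largest change of the 55 genes. It was measured at 106, 117 and 115 CPM in DMSO replicates 1, 2 and 3 and at 45.5, 38.8 and 40.7 CPM in FT671 replicates 1, 2 and 3. The groups were far apart, with the highest FT671 library under the lowest DMSO library. The log2 fold change was −1.44 ± 0.09 (SE), or 2.72-fold lower, with an adjusted p of 5.15e-08 in edgeR. Its loader did not follow as a whole. RFC2 (119, 127 and 116 CPM in DMSO, 143, 140 and 140 CPM after FT671) and RFC5 (93.3, 101 and 99.6 CPM, then 108, 120 and 133 CPM), both small subunits of the loader, were higher, by log2 fold changes of 0.22 and 0.30. RFC1, the large subunit, had a log2 fold change of −0.21 (adjusted p = 0.0677, edgeR), and RFC3 (−0.09) and RFC4 (−0.13) had no call either. Per kilobase of canonical transcript, PCNA was the highest of these 6 genes in DMSO, at 88.4 CPM per kb, and lay below RFC2 (83.6) and RFC5 (57.2) after FT671, at 32.6 CPM per kb.

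FEN1 (ENSG00000168496, hg38 chr11:61792911-61797238), the nuclease that PCNA brings to Okazaki fragments, had the next largest fall. Its levels were 87.5, 83.1 and 77.8 CPM in DMSO and 56.0, 53.0 and 43.0 CPM after FT671, without overlap. The log2 fold change was −0.73 ± 0.10 (SE), or 1.66-fold lower (edgeR, adjusted p = 5.8e-05). FEN1 shares 49 exon bases with FADS2 on the same strand. LIG1, the ligase that acts after FEN1, showed no such shift, at 122, 126 and 110 CPM in DMSO and 131, 112 and 121 CPM after FT671 (log2 fold change 0.02). RNASEH2A, the catalytic subunit of the enzyme that removes RNA primers, had 62 counts in all libraries together and shares 1095 of its 2056 exon bases with THSD8, so its value (−0.01 ± 0.35) carries little information.

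**Figure D2:**
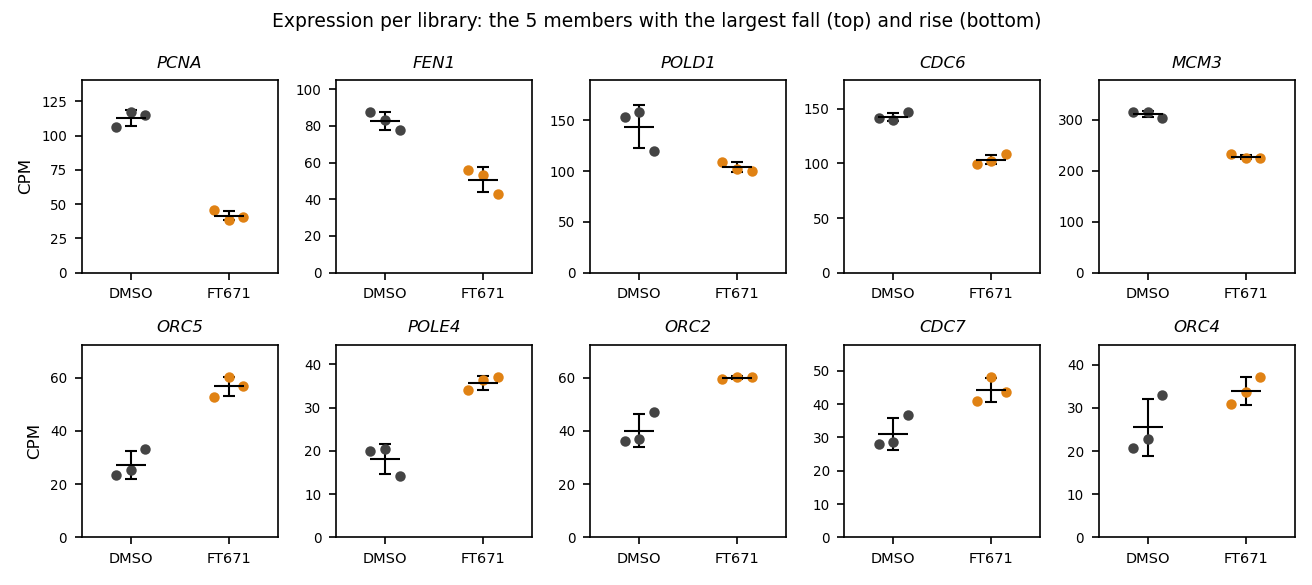
CPM (vertical axes, from 0) in each DMSO and FT671 library for the 5 replication genes with the largest fall (top row) and the 5 with the largest rise (bottom row) among those called. Points are libraries in the order of replicates 1 to 3, and bars are means ± SD (n = 3); the groups are apart in every panel but ORC4, where DMSO replicate 3 at 32.9 CPM lies above the lowest FT671 library at 30.9 CPM.

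Among the ORC subunits, ORC5 and ORC2 were higher in the reported fit and under all 15 alternatives. In the reported fit 5 of the 6 genes were higher, against 23.6% of all genes tested, but 2 of the 6 without FT671 replicate 3 and 3 of the 6 without DMSO replicate 1, DMSO replicate 2 or FT671 replicate 2. ORC5 (ENSG00000164815, hg38 chr7:104126340-104208050) was at 23.3, 25.2 and 33.1 CPM in DMSO and at 52.9, 60.3 and 56.8 CPM after FT671. Every FT671 library exceeded every DMSO library, and the log2 fold change was 1.09 ± 0.12 (SE), or 2.13-fold higher (edgeR, adjusted p = 8.28e-06). ORC2 rose from 36.1, 37.0 and 47.1 CPM to 59.3, 60.3 and 60.2 CPM, by a log2 fold change of 0.60 ± 0.11 (edgeR, adjusted p = 0.000405). These groups did not overlap either. ORC4, at 20.6, 22.9 and 32.9 CPM in DMSO and 30.9, 33.7 and 37.2 CPM after FT671, was called with a log2 fold change of 0.47 ± 0.15 (edgeR, adjusted p = 0.0185), although DMSO replicate 3 overlapped the FT671 libraries. ORC1, whose product is the ATPase subunit that is degraded after G1, rose by 0.21, and ORC3 by 0.30 with an adjusted p of 0.0497 in edgeR. The ORC3 and ORC4 calls were lost when DMSO replicate 1 or 2 or FT671 replicate 3 was left out, the ORC3 call also without FT671 replicate 2, and the ORC1 call without any one of the FT671 replicates. Without a filter on low counts ORC1 and ORC3 had no call, and with library totals alone ORC3 had none. ORC6, the smallest subunit, was at 15.4, 18.7 and 18.1 CPM in DMSO and 18.0, 14.1 and 18.6 CPM after FT671, and its log2 fold change was −0.02 (adjusted p = 0.923, edgeR). No ORC gene was lower in edgeR, also at an unadjusted p-value under 0.05, or in DESeq2's Wald test. With 26.5% of all genes tested lower in edgeR, 6 genes are too few to read this from.

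The loaders CDC6 and CDT1 moved the other way. CDC6 (ENSG00000094804, hg38 chr17:40287879-40304657), the ATPase that joins ORC, was at 142, 139 and 147 CPM in DMSO and at 99.5, 103 and 108 CPM after FT671, without overlap. The log2 fold change was −0.46 ± 0.07 (edgeR, adjusted p = 0.000155). CDT1 (ENSG00000167513, hg38 chr16:88803789-88809258) was at 703, 759 and 618 CPM and then at 508, 510 and 519 CPM, again without overlap. Its log2 fold change was −0.44 ± 0.08 (edgeR, adjusted p = 0.000392). GMNN, which encodes the inhibitor of CDT1, was at 63.6, 61.3 and 69.5 CPM in DMSO and at 64.2, 71.6 and 67.9 CPM after FT671, a log2 fold change of 0.08 with no call. Per kilobase, the ratio of CDT1 to GMNN within a library was 5.24, 5.87 and 4.22 in DMSO and 3.75, 3.38 and 3.62 after FT671. All FT671 libraries had the lower ratio (two-sided exact permutation test, p = 0.1, the smallest that 3 libraries against 3 allow, and 0.14 after adjustment over 7 ratios).

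Within the MCM2-7 helicase, MCM3 fell and MCM4 and MCM6 rose. MCM3 (ENSG00000112118, hg38 chr6:52264014-52284881) was at 315, 315 and 304 CPM in DMSO and at 233, 226 and 225 CPM after FT671, with no overlap and little spread in either group. The log2 fold change was −0.45 ± 0.07 (edgeR, adjusted p = 6.76e-05). MCM4 was at 379, 382 and 421 CPM and then at 523, 536 and 558 CPM, a log2 fold change of 0.45 ± 0.07 in the opposite direction (edgeR, adjusted p = 0.000111). MCM6 rose by 0.27, from 206, 207 and 221 CPM to 238, 266 and 256 CPM. MCM2, MCM5 and MCM7 had no call, with log2 fold changes of 0.01, 0.02 and 0.15. MCM7 was called higher with the gene length or GC correction, with or without the replicate block, with log2 fold changes of 0.22 to 0.24 (edgeR, adjusted p = 0.00143 to 0.0139). Per kilobase, MCM3 and MCM4 stood at 102 and 97.0 CPM per kb in DMSO and at 74.3 and 133 CPM per kb after FT671. The ratio of MCM3 to MCM4 was 1.10, 1.09 and 0.958 in DMSO and 0.589, 0.557 and 0.535 after FT671. The ratio was therefore lower in each FT671 library, a comparison chosen after the values were seen (two-sided exact permutation test, p = 0.1, adjusted 0.14). MCM2 shares 1113 exon bases with an antisense lncRNA, ENSG00000285600, and the strand setting of the counting is not given in the sources used here, so its value is uncertain. MCM10, which helps to activate the helicase, and MCM8, which acts in repair, had log2 fold changes of 0.12 and 0.08 with no call, and 2564 exon bases of MCM8 are shared with ENSG00000286235.

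**Figure D3:**
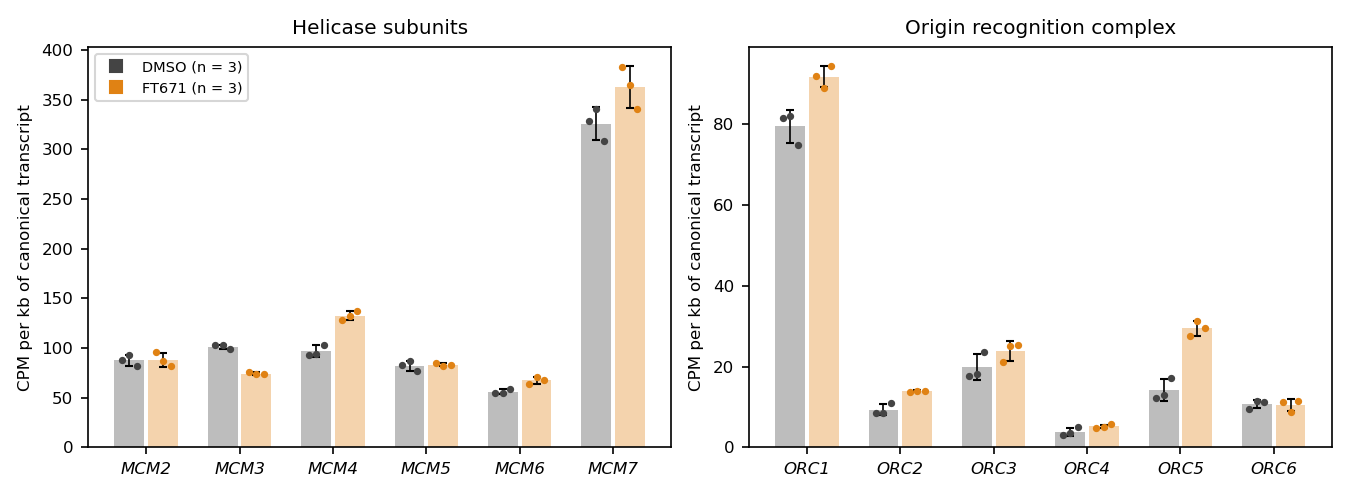
Levels of the helicase subunits (left) and ORC subunits (right) in CPM per kb of canonical transcript, from 0 on both axes. Bars are means, whiskers ± SD and points the 3 libraries of each group; MCM3 is lower and MCM4 higher after FT671, ORC5 shows the largest rise among the ORC genes, and MCM7 at 326 CPM per kb and ORC1 at 79.5 CPM per kb are the most abundant in DMSO.

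Levels differed widely inside each complex, although its subunits are needed together. MCM7 exceeded MCM6 5.80-fold per kilobase in DMSO and 5.37-fold after FT671. ORC1 exceeded ORC4 20.4-fold in DMSO and 17.7-fold after FT671. Among CDC45 and the GINS genes, CDC45 was the highest at 232 CPM per kb in DMSO and GINS4 the lowest at 5.79 CPM per kb, an order kept after FT671. These ratios use the canonical transcript's length and would shift if other transcripts were the main ones.

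The genes that activate the loaded helicase changed in part. CDC7, the kinase subunit, rose from 28.1, 28.5 and 36.6 CPM to 40.9, 48.2 and 43.6 CPM, with no overlap and a log2 fold change of 0.53 ± 0.12 (edgeR, adjusted p = 0.00198). DBF4, its activating subunit, was at 29.1, 31.2 and 32.2 CPM and then at 28.0, 29.8 and 28.5 CPM, and its log2 fold change of −0.09 was not called. The ratio of CDC7 to DBF4 per kilobase was 1.10, 1.04 and 1.29 in DMSO and 1.66, 1.84 and 1.74 after FT671, higher in every FT671 library (two-sided exact permutation test, p = 0.1, adjusted 0.14). CDC45 was at 445, 442 and 421 CPM in DMSO and at 391, 388 and 376 CPM after FT671. This difference was small but without overlap, at −0.18 ± 0.07 (edgeR, adjusted p = 0.0326). Its call was lost under 9 of the 15 alternatives, among them DESeq2's size factors and each fit that left out a library other than DMSO replicate 3. Of the GINS genes, GINS2 rose by 0.27 (54.3 to 58.8 CPM in DMSO and 63.0 to 71.0 CPM after FT671), while GINS1 (−0.20), GINS3 (0.12) and GINS4 (0.28, adjusted p = 0.0633 in edgeR) had no call. GINS4 and GINS3 overlap antisense lncRNAs.

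All 3 replicative polymerases held subunits that were called, although the calls in polymerase α-primase depended on single libraries. In polymerase ε, the histone-fold subunits POLE4 and POLE3 rose. POLE4 (ENSG00000115350, hg38 chr2:74958643-74970128) went from 20.01, 20.4 and 14.2 CPM to 34.0, 36.3 and 37.1 CPM, without overlap, by a log2 fold change of 0.94 ± 0.13 or 1.92-fold (edgeR, adjusted p = 3.94e-05). POLE3 went from 117, 124 and 135 CPM to 166, 167 and 185 CPM, also without overlap, by 0.47 ± 0.08 (edgeR, adjusted p = 0.000253). The catalytic subunit POLE was at 188, 189 and 206 CPM and then at 178, 176 and 175 CPM, a log2 fold change of −0.14 with no call despite groups that did not overlap. POLE2 had no call (0.11).

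In polymerase δ, the catalytic subunit and its partner moved apart. POLD1 (ENSG00000062822, hg38 chr19:50384204-50418018) fell from 154, 158 and 120 CPM to 109, 102 and 99.9 CPM, by a log2 fold change of −0.48 ± 0.10 (edgeR, adjusted p = 0.0011). The groups did not overlap, although DMSO replicate 3 lay nearest to the FT671 libraries. POLD2 rose by 0.21, from 291, 306 and 256 CPM to 332, 325 and 332 CPM (edgeR, adjusted p = 0.0319), a call that was lost under 7 of the 15 alternatives. The ratio of POLD1 to POLD2 per kilobase was 0.247, 0.242 and 0.219 in DMSO and 0.154, 0.147 and 0.141 after FT671. This pair was also chosen after its values were seen (two-sided exact permutation test, p = 0.1, adjusted 0.14). POLD3, an accessory subunit, had a log2 fold change of −0.04. In polymerase α-primase, POLA1, the catalytic subunit, and PRIM2, the large primase subunit, rose by 0.35 and 0.33. Both calls were lost without DMSO replicate 1, DMSO replicate 2, FT671 replicate 2 or FT671 replicate 3, and the groups of PRIM2 overlapped. PRIM1, the small primase subunit, and POLA2 had no call at −0.17 and −0.24. POLA2 had 315 counts in all libraries together and shares 2012 exon bases with ENSG00000285816, and PRIM1 shares 139 with NACA.

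RPA, the trimer that coats single-stranded DNA, showed the same split. RPA1, the large subunit, was at 120, 125 and 132 CPM in DMSO and at 97.9, 100 and 106 CPM after FT671, a log2 fold change of −0.31 ± 0.08 (edgeR, adjusted p = 0.00374). RPA2, the middle subunit, was at 114, 115 and 107 CPM and then at 147, 146 and 150 CPM, a log2 fold change of 0.40 ± 0.07 (edgeR, adjusted p = 0.000418). Neither pair of groups overlapped, and both calls were kept under every alternative. The ratio of RPA1 to RPA2 per kilobase was 0.345, 0.356 and 0.404 in DMSO and 0.218, 0.225 and 0.230 after FT671, again for a pair chosen after its values were seen (two-sided exact permutation test, p = 0.1, adjusted 0.14). RPA3 had a log2 fold change of −0.16 with no call (adjusted p = 0.188, edgeR). Of the fork protection factors, TIMELESS rose from 119, 130 and 120 CPM to 169, 157 and 156 CPM, by 0.39 ± 0.07 (edgeR, adjusted p = 0.000621). WDHD1, which links the helicase to polymerase α, rose by 0.30 (edgeR, adjusted p = 0.0433), but its groups overlapped. The WDHD1 call was lost under 6 of the 15 alternatives. TIPIN, the partner of TIMELESS, had no call at 0.13.

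Topoisomerases, which relieve and untangle DNA ahead of and behind the fork, and ribonucleotide reductase, which makes deoxynucleotides, had no call among their 5 genes in edgeR. There was also 0 at an unadjusted p-value under 0.05 and 0 in DESeq2's Wald test. Of all genes tested, 50.1% were called in edgeR. TOP2A was at 538, 511 and 729 CPM in DMSO and at 622, 673 and 666 CPM after FT671. TOP2B was at 178, 159 and 248 CPM and then at 195, 225 and 223 CPM. DMSO replicate 3 was the highest library of all 6 for both genes. Without it, both were called higher, by log2 fold changes of 0.31 (edgeR, adjusted p = 7.07e-05) and 0.34 (edgeR, adjusted p = 0.000118), and with a correction for gene length by 0.27 and 0.29. The ratio of TOP2A to TOP2B was nearly the same throughout, from 3.01 to 3.28 in DMSO and from 3.05 to 3.26 after FT671 (two-sided exact permutation test, p = 0.9, adjusted 0.9). TOP1 had a log2 fold change of 0.01. RRM1, the large subunit of the reductase, was at 238, 213 and 257 CPM in DMSO and 232, 256 and 255 CPM after FT671, and RRM2, its S-phase subunit, at 158, 157 and 151 CPM and then 148, 153 and 152 CPM, with log2 fold changes of 0.07 and −0.04. The ratio of RRM2 to RRM1 gave an exact permutation p of 0.4 (two-sided, adjusted 0.467).

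**Figure D4:**
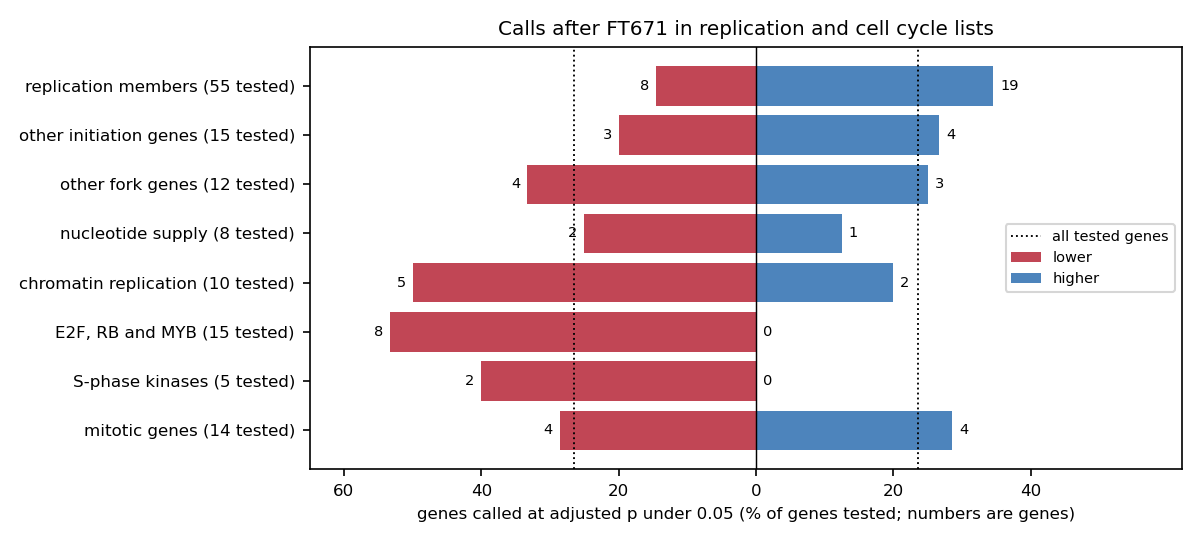
Share of genes tested that were lower (left, red) or higher (right, blue) after FT671 at an adjusted p-value under 0.05, in percent, for the replication genes and 7 lists of related genes, with the number of genes beside each bar. Dotted lines are the shares among all genes tested (26.5% lower, 23.6% higher). Of the 15 E2F, RB and MYB genes, 8 were lower. Of the replication genes, 8 were lower and 19 higher, or 7 and 9 without FT671 replicate 3. In that fit 22.3% of all genes tested were lower and 18.9% higher.

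Other genes of the pathway were counted in the same fit, in which 26.5% of all genes tested were lower and 23.6% higher. Of 15 further initiation genes, 3 were lower (20%) and 4 higher (26.7%), near these shares. TOPBP1 (−0.77) and RECQL4 (−0.75), which help to assemble the active helicase, were the largest falls, and MCM9 (0.72), the partner of MCM8 in repair, was the largest rise. Of 12 further fork genes, 4 were lower (33.3%) and 3 higher (25%) in edgeR, and 2 and 2 in DESeq2's Wald test. CHTF8 (−0.64) and DSCC1 (−0.61), parts of an alternative clamp loader, and the polymerase δ subunit POLD4 (−0.59) showed the largest log2 decreases. CHTF8 and POLD4 had overlapping groups and no call in the Wald test (adjusted p = 0.107 and 0.106). Of 8 genes of nucleotide supply, 25% were lower and 12.5% higher. SAMHD1 (−0.79), which breaks down dNTPs, and TK1 (−0.41), thymidine kinase, were lower, and DCK (0.41), deoxycytidine kinase, was higher. Of 10 genes that rebuild chromatin behind the fork, 5 were lower (50%) and 2 higher (20%). Among them were the lower CHAF1A (−0.48), ASF1A (−0.47) and SUPT16H (−0.46), all of which handle histones.

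The E2F, RB and MYB list had the highest share of falls among these lists. FT671 lowered 8 of its 15 genes (53.3%), against 26.5% of all genes tested. The list's median log2 fold change was −0.29 against −0.01 for all genes tested. None of the 15 was higher in edgeR, also at an unadjusted p-value under 0.05, or in DESeq2's Wald test. In edgeR, 23.6% of all genes tested were higher. E2F8, a repressor of the family, was at 21.1, 23.6 and 18.7 CPM in DMSO and at 5.996, 8.48 and 8.67 CPM after FT671, a log2 fold change of −1.42 (edgeR, adjusted p = 6.11e-06). The activator E2F3 (−0.76) and the RB relative RBL1 (−0.74) were also among the falls. Of 5 S-phase kinase genes, CDC25A, the phosphatase that activates CDK2, fell by 0.84 on the log2 scale and CCNE1, cyclin E1, by 0.54. None of these 5 was higher in edgeR, also at an unadjusted p-value under 0.05, or in DESeq2's Wald test. With 23.6% of all genes tested higher, 5 genes are too few to read this from. CDK2 had no call (0.09), although every FT671 library lay above every DMSO library. Of 14 mitotic genes, 4 were lower and 4 higher (28.6% each), near the 26.5% and 23.6% of all genes tested. PLK1 (−0.90), AURKA (−0.78) and CCNB1 (−0.54) were the largest changes, and UBE2C, with 3 counts in all, did not pass the filter. RAD18, a ubiquitin ligase that acts on PCNA, was higher by 0.30. These lists were written by hand with earlier results of these data known, so their counts are given as a description.

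**Figure D5:**
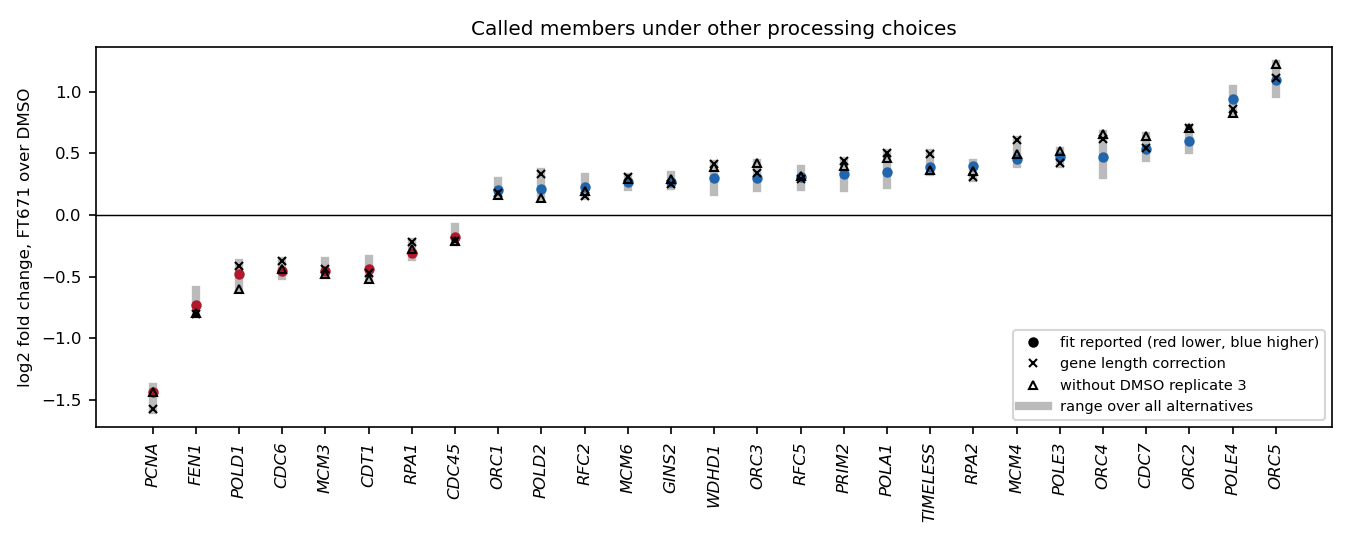
Log2 fold change after FT671 (vertical axis) of the 27 called replication genes in the fit reported (coloured points), with a correction for gene length (crosses) and without DMSO replicate 3 (triangles). Grey bars span all 15 alternatives; none of the 27 bars crosses zero, and the bar of PCNA runs from −1.58 to −1.40.

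Of the 27 calls, 15 were kept under all 15 alternatives: PCNA, FEN1, POLD1, CDC6, MCM3, CDT1 and RPA1 among the lower genes, and ORC5, POLE4, ORC2, CDC7, POLE3, MCM4, RPA2 and TIMELESS among the higher ones. The other 12 were lost in at least 1 fit that left out a library. Without DMSO replicate 1, the calls of ORC3, ORC4, CDC45, GINS2, RFC2, RFC5, POLA1, PRIM2, POLD2 and WDHD1 were lost, and 10 genes were higher. Without DMSO replicate 2, those of ORC3, ORC4, CDC45, POLA1, PRIM2 and WDHD1 were lost, 14 genes were higher, and RFC1 gained a call. Without DMSO replicate 3, the call of POLD2 was lost, GINS4, TOP2A and TOP2B gained one, and 21 genes were higher. Leaving out FT671 replicate 1 removed the calls of ORC1, CDC45, GINS2, RFC2 and POLD2 and left 15 higher genes. Leaving out FT671 replicate 2 removed those of ORC1, ORC3, MCM6, CDC45, RFC2, POLA1, PRIM2, POLD2 and WDHD1 and left 11. Leaving out FT671 replicate 3 removed those of ORC1, ORC3, ORC4, CDC45, GINS2, RFC2, RFC5, POLA1, PRIM2, POLD2 and WDHD1 and left 9. The count of lower genes stayed between 7 and 8 in these fits. Shares of all genes tested moved as well. Higher genes made up 19.8%, 21.3% and 25.7% of them without DMSO replicate 1, 2 or 3. Without FT671 replicate 1, 2 or 3 these shares were 20.3%, 18.4% and 18.9%. For the replication genes they were 18.2%, 25.5% and 38.2%, then 27.3%, 20% and 16.4%. Lower genes were 21.4% to 27.5% of all genes tested and 12.7% to 14.5% of the replication genes. Of the 28 genes without a call, 8 gained one under at least 1 alternative: besides MCM7, RFC1, GINS4, TOP2A and TOP2B, these were MCM10 and TOP1 with the gene length correction, with or without the block, and LIG1 with the length correction and the block.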

How the data were processed

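RNA-seq was available for 6 K562 cultures, 3 treated with DMSO and 3 with 10 μM FT671 for 48 h. Per the labels and the paper's methods, libraries were depleted of ribosomal RNA (KAPA RNA HyperPrep with RiboErase) and sequenced paired-end, and reads were aligned to hg38 with STAR. The authors deposited 1 read count per gene and library, without normalization. The version of STAR, the annotation release and the strand setting are not given in the sources used here. Identifiers were matched to GENCODE release 44 (60295 of 60609 genes). The unmatched 314 genes held 0.0609% of the counts and were kept in the fit.

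Counts were filtered with filterByExpr, scaled by TMM and compared by the quasi-likelihood test without covariates in edgeR 4.0.16 (R 4.3.3), with Benjamini-Hochberg adjustment over all 13895 genes. SE is the size of the log2 fold change divided by the square root of F. CPM use TMM-scaled library sizes, and levels between genes were compared only per kilobase of the Ensembl canonical transcript. Ratios were compared by two-sided exact permutation tests over libraries on the log2 scale. Motif windows came from RefSeq GRCh38.p14. Replicates of one treatment differed by more than counting error (chi-square per degree of freedom 2.07 to 8.73), so each was counted as 1 sample. Alternatives were DESeq2's size factors, library totals alone, the Wald test of DESeq2 1.42.0, an unfiltered fit, corrections for gene length and GC content (loess, span 0.3), the replicate number as a block, alone and with each correction, and each library left out in turn.

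The fit was tested on simulated counts for the comparison of FT671 with DMSO (13887 genes tested). It recovered 26 of 66 genes changed by a log2 of 0.5, 52 of 61 changed by 1 and 68 of 69 changed by 2, with 11 false calls. Members, gene lists and the rule for the genes named were chosen with earlier results of these data known. By that rule all 55 members are accounted for, with full values for those called at 1e-05 and the 5 largest changes in each direction, and up to 3 called genes are named per other list. A few of the marker genes are not reported here. No amino acid or ChIP-seq data were used.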

Additional observations from a re-analysis of the deposited data

How the results depend on the processing

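None of the 27 called genes changed sign under the 15 alternatives, while 12 of the 28 genes without a call did, all with small values. At 0.05, the count of higher genes (19) ranged from 9 to 21 and that of lower genes (8) from 7 to 8 when a library was left out. Of all genes tested, 18.4% to 25.7% were higher and 21.4% to 27.5% lower in these fits. Without a filter on low counts 13 were higher, or 23.6% against 9.74% of the 31316 genes then tested. With a gene length correction 24 were higher, or 43.6% against 27.6% of all genes tested. With this correction the median of the 55 genes moved from 0.08 to 0.15, and that of all genes tested from −0.01 to 0.04. At 1e-05 the counts (1 lower and 1 higher) depended on the processing. Lower genes numbered 3 with DESeq2's Wald test, 6 without a filter, 2 with the gene length correction and 2 with the GC correction. Higher genes numbered 0 with library totals alone, 5 with the Wald test, 4 without a filter, 2 with the gene length correction and 6 with the GC correction. With a library left out, lower genes ranged from 1 to 6 and higher genes from 0 to 7, the upper values without DMSO replicate 3. Where the count of higher genes at 1e-05 was 0, 16 were higher at 0.05 with library totals alone, and 9 to 15 with DMSO replicate 1 or 2 or an FT671 replicate left out. The cause of these shifts was not tested, other than that a left-out library leaves 5 samples.

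The replicate numbers did not meet the rule for pairs, since the deviations of same-numbered libraries correlated at 0.115, −0.0605 and 0.14 for replicates 1, 2 and 3. DMSO replicate 2 correlated best with FT671 replicate 1 (0.125). Blocking on the replicate number gave 9 genes that were lower and 19 that were higher at 0.05, and 2 and 1 at 1e-05. With the block and the gene length correction 4 were lower and 5 higher at 1e-05, and with the block and the GC correction 2 were lower and 5 higher.

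Depth limits the low genes: RNASEH2A (62 counts in all), POLA2 (315), POLE2 (554) and MCM8 (574) had standard errors of 0.15 to 0.35. On simulated counts most changes of 0.5 on the log2 scale were missed. Those were drawn from genes of all levels, with 196 of 13887 changed, so they do not give the power for these genes.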
